A study of Homo sapiens with 9 samples.

Results

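The genes described here are 7 that are commonly mutated or deleted in pancreatic cancer: CDKN2A, CDKN2B, MTAP, SMAD4, TGFBR2, MAP2K4 and BRAF. They were chosen by name, with earlier results of these data known, out of 56865 genes to which the deposited transcripts were summed. Poly(A)-selected RNA was sequenced from cells labelled BxPC3, a pancreatic adenocarcinoma line, with the genotype label p53Y220C/- in every group. The 9 libraries are 3 of cells given the vehicle DMSO, 3 of cells given MS172 and 3 of cells given PK9328, a compound known as a ligand of mutant p53. The treatment text gives 5 µM for 6 h, but names PK9328 and MS78 where the sample titles name MS172, so dose and time for the MS172 libraries rest on the reading that the same treatment is meant. Nothing in the labels says that libraries of a group came from separate cultures, so p-values measure the spread between these libraries, which may be technical.

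The libraries held 24077353 to 28031886 estimated reads. Of 26 ductal epithelial markers, 17 had a mean under 1 TPM, the level per length on a scale common to all libraries, and 4 had no reads. EPCAM stood at 0.0411 TPM, CDH1 (E-cadherin) at 0.0153 and KRT7 at 0.195, whereas KRT8, KRT18 and KRT19 stood at 579, 735 and 338 TPM. The summed level of the 26 was 2110 to 2240 TPM in the DMSO libraries, 2260 to 2370 with MS172 and 1980 to 2010 with PK9328. Of 16 mesenchymal markers, 11 were under 1 TPM, but VIM (vimentin) stood at 6690, COL1A2 at 563 and ZEB1 at 25.3 TPM. Of 10 acinar and endocrine markers, 9 had no reads, and of 10 leukocyte and endothelial markers 8 were under 1 TPM. Other markers of epithelial cells and ducts were high, with the integrin ITGB4 at 274, the claudin CLDN4 at 105 and the transcription factor SOX9 at 93.3 TPM. EPCAM and CDH1 were thus near 0 in cells labelled as pancreatic adenocarcinoma cells while other epithelial genes were not, and the identity of the line was not tested.

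Pancreatic cancers lose or mutate genes of a few pathways. CDKN2A and CDKN2B encode inhibitors of the kinases CDK4 and CDK6, which otherwise phosphorylate RB and let cells enter the cell cycle, and a second reading frame of CDKN2A encodes ARF, which blocks MDM2 and so keeps p53 stable. MTAP lies beside them, recycles methylthioadenosine in the methionine salvage pathway and is often lost in the same deletion. TGFBR2 is the receptor that binds TGF-beta and activates TGFBR1, and SMAD4 carries the signal to the nucleus with SMAD2 and SMAD3. MAP2K4 phosphorylates JNK and p38 kinases, and BRAF passes the signal of RAS to MEK and ERK. The line BxPC3 is widely described as having lost both copies of CDKN2A and of SMAD4 and as carrying a small in-frame deletion in BRAF.

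The junctions between the first exon and exon 2 of the 9p21 genes are shown because they tell the transcripts of this locus apart. Both reading frames of CDKN2A, p16INK4a (transcript CDKN2A-201) and ARF (CDKN2A-214), splice different first exons to the same exon 2, and CDKN2B carries the same bases at the start of its own exon 2. Letters are from GENCODE 29 transcripts on hg38, 20 bases on each side, with the bases of exon 2 in capitals.
CDKN2A-201: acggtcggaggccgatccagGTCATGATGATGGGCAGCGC
CDKN2A-214: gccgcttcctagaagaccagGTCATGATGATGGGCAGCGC
CDKN2B-201: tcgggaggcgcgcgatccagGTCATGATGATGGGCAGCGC
MTAP-201: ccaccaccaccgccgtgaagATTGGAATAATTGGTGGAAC
The 20 bases in capitals are the same in the CDKN2A and CDKN2B lines and differ in MTAP. None of these transcripts had a read in any library.

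CDKN2A, CDKN2B and MTAP each had 0 estimated reads in all 3 DMSO, all 3 MS172 and all 3 PK9328 libraries. CDKN2A (chr9:21967753-21995301, minus strand, hg38) has 14 transcripts in the tables, CDKN2B (chr9:22002903-22009363, minus strand) 3 and MTAP (chr9:21802543-21937651, plus strand) 13, and every one was listed at 0. The transcript set behind the quantification is not given in the sources used here and was not complete for every gene. It held 14 of 14 annotated transcripts of CDKN2A, 3 of 3 of CDKN2B and 13 of 14 of MTAP. Widely expressed genes such as ARID1B and KDM6A were also listed at 0. Whether a 0 is a failed estimate was not tested. A count of 0 allows up to 3 reads, which is 0.107 to 0.125 CPM (reads scaled to library size) in single libraries and 0.0129 CPM over the 9 libraries summed, for counting error only. A gene without reads was not rare in itself, since 3992 of 19649 coding genes outside chromosome Y (20.3%) had none. In bulk RNA, fewer cells holding a transcript and less RNA per cell cannot be told apart, and RNA tables do not show whether DNA is present.

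**Figure D1:**
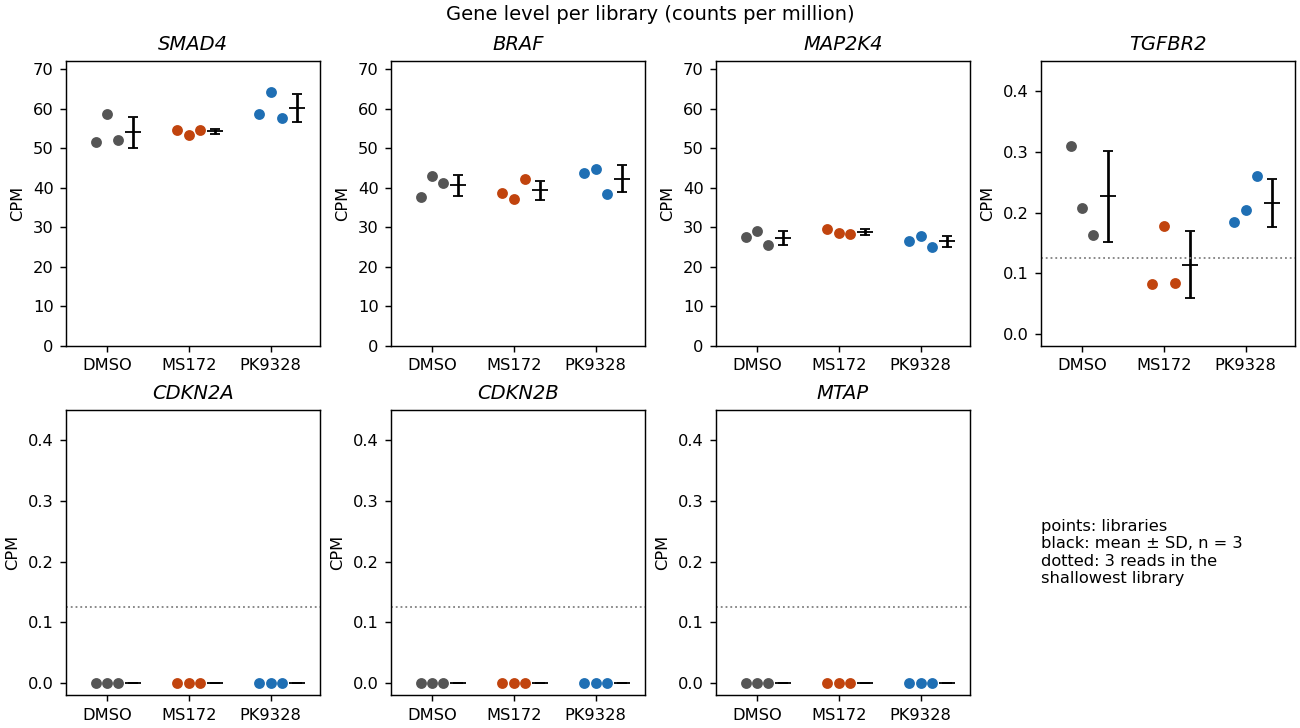
Level of each of the 7 genes in CPM (vertical axes) in the DMSO, MS172 and PK9328 libraries, with points for libraries and the mean ± SD (n = 3) in black. CDKN2A, CDKN2B and MTAP sit at 0 in every library, TGFBR2 lies near the dotted line for 3 reads in the shallowest library, and SMAD4, BRAF and MAP2K4 lie between 24.9 and 64.1 CPM.

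The 3 genes lay inside a stretch of chromosome 9 in which no coding gene had a read. From FOCAD to DMRTA1 (chr9:20658309-22455740, 1.8 Mb), 24 neighbouring coding genes were at 0 in all 9 libraries. Of these, 16 were interferon genes, which most cells keep silent without viral RNA. The other 8 were FOCAD, HACD4, KLHL9, MTAP, AL359922.1, CDKN2A, CDKN2B and DMRTA1. The span also holds 35 non-coding genes and pseudogenes, and 2 of the pseudogenes, KHSRPP1 and UBA52P6, had 2 reads and 1 read in all. Of the deposited transcripts, 125 fall in this span, and together they held 3 reads over the 9 libraries.

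The nearest coding genes with at least 1 TPM on either side were RPS6 (chr9:19375715-19380254), a ribosomal protein gene at 2280 TPM, and CAAP1 (chr9:26840685-26892804), an apoptosis regulator at 11.5 TPM. They stand 7.46 Mb apart, and of the 30 coding genes between them 26 had no reads. The 4 with reads were MLLT3 with 1 read over all libraries, ELAVL2 with 9, SLC24A2 with 11 and ACER2 with 159. Across the genome, neighbouring coding genes without reads formed 2062 runs with a median of 1 gene, and 6 runs had 24 genes or more. The other 5 of these run from FLG to SPRR1B (30 genes), OR2B11 to LYPD8 (44), OR4C13 to OR5AP2 (41), KRTAP2-4 to KRTAP17-1 (24) and CLDN17 to KRTAP19-8 (35), which are clusters rich in epidermal, olfactory receptor and keratin-associated genes.

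**Figure D2:**
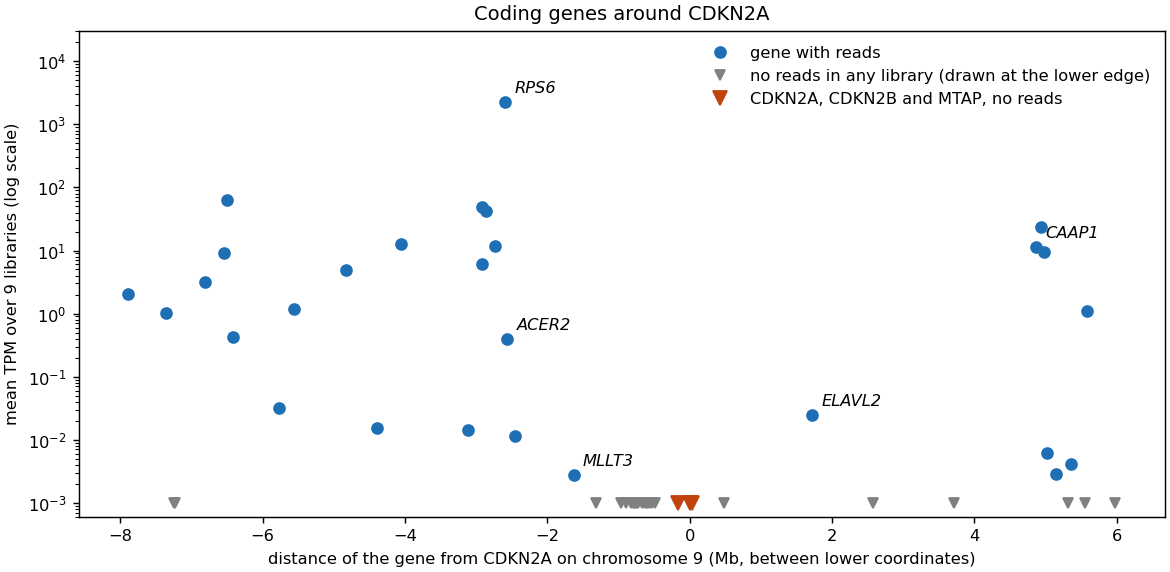
Mean TPM over the 9 libraries (vertical log axis) of coding genes by their distance from CDKN2A on chromosome 9 in Mb (horizontal axis), with genes without reads drawn as triangles at the lower edge. CDKN2A, CDKN2B and MTAP lie among genes without reads, and the nearest genes above 1 TPM are RPS6 and CAAP1.

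SMAD4 (chr18:51028394-51085045, plus strand) was expressed in every library. It had 1330, 1688 and 1276 estimated reads in the DMSO libraries, 1335, 1204 and 1310 with MS172 and 1598, 1874 and 1544 with PK9328. Its mean level over the 9 libraries, 19.1 TPM, was above that of 74.7% of coding genes. This level depends on how its reads were split between long and short transcripts. The line that the label names is described as having lost both SMAD4 and CDKN2A. Here SMAD4 had reads and CDKN2A had none. Neither the DNA of these genes nor the identity of the line was tested. The coding genes nearest to SMAD4 with at least 1 TPM were ELAC1 at 9.26, ME2 at 74.0, MEX3C at 101, MBD2 at 6.90 and POLI at 4.58 TPM, and none of its 10 coding neighbours was without reads. A readthrough gene, AC091551.1, overlaps SMAD4 and took 72.3 reads in all libraries together.

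Scaled to library size, SMAD4 stood at 51.5, 58.6 and 52.0 CPM in the DMSO libraries, at 54.5, 53.4 and 54.6 with MS172 and at 58.7, 64.1 and 57.5 with PK9328. The PK9328 libraries were the highest on average, 2 of them exceeded every DMSO library and all 3 exceeded every MS172 library. The mean was 54.0 ± 3.9 CPM (SD, n = 3) with DMSO, 54.2 ± 0.65 with MS172 and 60.1 ± 3.5 with PK9328. Between MS172 and DMSO the log2 fold change was 0.00 ± 0.05 (SE, 95% interval -0.11 to 0.11, adjusted p = 0.978, edgeR quasi-likelihood test with Benjamini-Hochberg adjustment over 13914 genes). Between PK9328 and DMSO it was 0.15 ± 0.05 (0.04 to 0.26, adjusted p = 0.047 by edgeR), and the groups overlapped in range. The call was lost with DESeq2 (adjusted p = 0.0771) and limma-voom (0.0725). It was also lost, by edgeR, without DMSO replicate 1 (adjusted p = 0.224) or 3 (0.183), without PK9328 replicate 1 (0.0671) or 2 (0.289), and without MS172 replicate 1 (0.0615), 2 (0.0601) or 3 (0.0547), which share the fit but are not in this comparison. With MS172 set against PK9328 the log2 fold change was -0.15 ± 0.05 (-0.26 to -0.04, adjusted p = 0.0209 by edgeR), and this call too was lost with DESeq2 (0.065) and, by edgeR, without MS172 replicate 2 (0.0714) or PK9328 replicate 2 (0.166). Fragments were shorter in the PK9328 libraries, with an implied mean between 249.5 and 263.0 bases, than in the DMSO libraries (281.2 to 289.1) and the MS172 libraries (274.1 to 292.8). With fragment length as a covariate the log2 fold change was 0.207 against DMSO (edgeR adjusted p = 0.442) and -0.207 between the compounds (0.205). Fragment length and the PK9328 group largely coincide, so this fit cannot tell them apart.

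Of the 7 genes, 3 (SMAD4, MAP2K4 and BRAF) passed the filter on low counts and were tested. Between MS172 and DMSO none of the 3 passed the test, where 35.1% of all genes tested did (17.9% higher and 17.2% lower), and the unadjusted p was 0.965 for SMAD4, 0.242 for MAP2K4 and 0.461 for BRAF. By DESeq2 and limma-voom the count was also 0. SMAD4 alone passed between PK9328 and DMSO, where 15.5% of all genes did (7.98% higher and 7.48% lower), and between MS172 and PK9328, where 47.7% did (23.3% higher and 24.4% lower with MS172). The shares among the members rest on 3 genes and are given as a description. Both comparisons with DMSO share its 3 libraries.

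**Figure D3:**
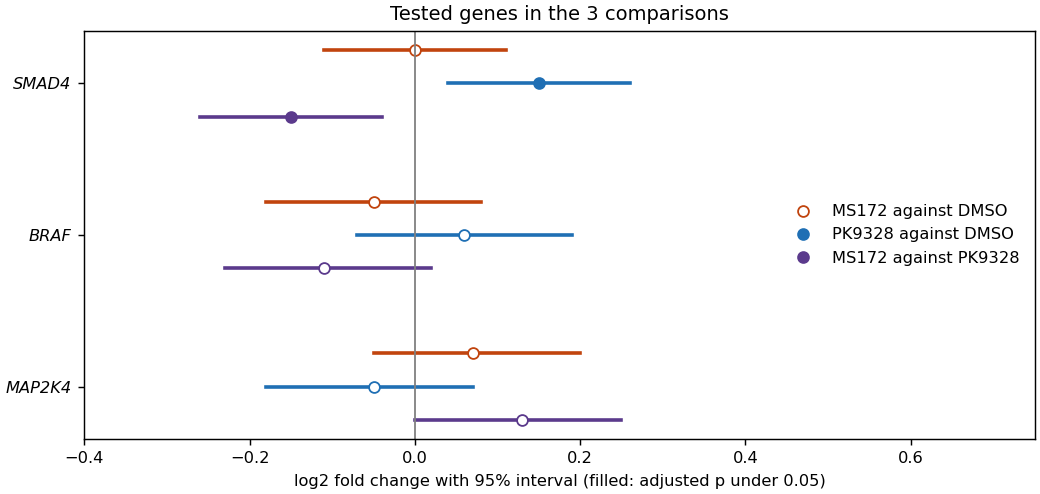
Log2 fold change with its 95% interval (horizontal axis) of SMAD4, BRAF and MAP2K4 in the 3 comparisons, with filled points for an adjusted p under 0.05. SMAD4 is at 0.15 for PK9328 against DMSO and at -0.15 for MS172 against PK9328, and the other 7 points are open.

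The quantification assigned SMAD4 reads to 12 of 17 annotated transcripts. SMAD4-201, the full-length coding transcript of 8769 bases, took 55.5 to 79.1% of the reads of the gene. SMAD4-202 has the same 1656 coding bases in 11 coding exons and starts from another first exon, at chr18:51029614-51029744 in place of chr18:51030213-51030623. SMAD4-202 had 0 reads in all 3 DMSO libraries, 218.7, 321.1 and 350.2 with MS172, and 0, 66.7 and 28.9 with PK9328. Every MS172 library was thus above every other library, with 16.4 to 26.7% of the SMAD4 reads. SMAD4-201 had 1016, 1334 and 960 reads with DMSO, 887, 763 and 727 with MS172 and 1101, 1187 and 960 with PK9328, so that the MS172 libraries were the lowest.

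SMAD4-217 and SMAD4-214, of 1648 and 1306 bases, are both annotated as targets of nonsense-mediated decay, in which the cell degrades messages with an early stop. SMAD4-217 begins after the first coding exon of SMAD4-201 and has 658 coding bases in 6 coding exons, against 1656 in 11 for SMAD4-201. SMAD4-214 has its stop before that of SMAD4-201. Transcripts annotated as decay targets took 13.6 to 20.8% of SMAD4 reads with DMSO, 10.0 to 15.0% with MS172 and 17.9 to 27.8% with PK9328. In TPM, which divides by length, these splits moved the level of the gene. SMAD4 stood at 17.8, 19.5 and 17.3 TPM with DMSO, 14.2, 10.1 and 14.4 with MS172, and 22.7, 29.1 and 26.3 with PK9328. The 3 groups did not overlap in TPM, while DMSO overlapped both other groups in CPM. With counts rebuilt from TPM at a common length, the log2 fold change by edgeR was -0.336 for MS172 against DMSO (adjusted p = 0.0685), 0.469 for PK9328 against DMSO (0.0364) and -0.805 for MS172 against PK9328 (0.000445). Transcripts of 1 gene share most of their bases, the split between them is an estimate, and it was not tested.

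**Figure D4:**
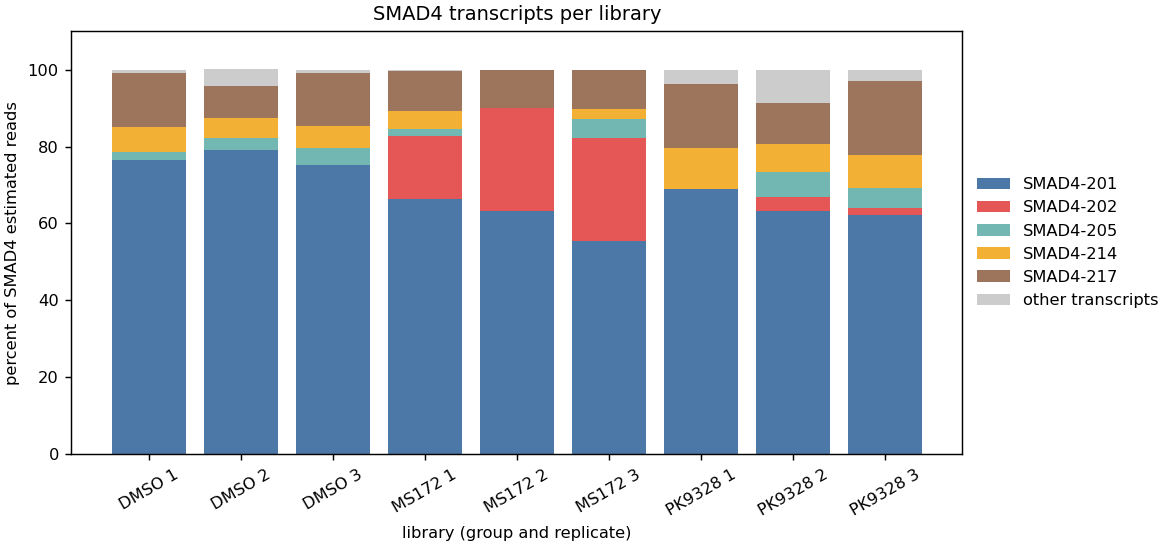
Share of SMAD4 estimated reads in percent (vertical axis) assigned to each transcript in each library (horizontal axis), as stacked bars. SMAD4-201 holds 55.5 to 79.1%, and SMAD4-202 holds 16.4 to 26.7% in the MS172 libraries and 0% in the DMSO libraries.

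TGFBR2 (chr3:30606502-30694142, plus strand) was near the limit of detection. It had 8, 6 and 4 estimated reads in the DMSO libraries, 2, 4 and 2 with MS172 and 5, 6 and 7 with PK9328, which makes 44 in all. The level was 0.0622 ± 0.021 TPM (SD, n = 3) with DMSO, 0.028 ± 0.013 with MS172 and 0.061 ± 0.010 with PK9328. Its mean of 0.0504 TPM was above that of 32.2% of coding genes, many of which had no reads. TGFBR2 failed the filter on low counts, so no comparison was tested. The longer-coding transcript TGFBR2-202 (1776 coding bases) took 38 of the 44 reads and TGFBR2-201 (1701 coding bases) took 6, all in PK9328 replicate 2. Of the 10 nearest coding genes 1, GADL1, was without reads, and STT3B at 32.1, CMC1 at 27.8 and AZI2 at 16.8 TPM lay around it.

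MAP2K4 (chr17:12020824-12143830, plus strand) stood at 27.4, 29.0 and 25.6 CPM in the DMSO libraries, at 29.5, 28.6 and 28.2 with MS172 and at 26.4, 27.8 and 24.9 with PK9328. The MS172 libraries lay just above all PK9328 libraries, and both groups overlapped DMSO. The mean was 27.3 ± 1.7 CPM (SD, n = 3) with DMSO, 28.8 ± 0.69 with MS172 and 26.4 ± 1.4 with PK9328. None of the comparisons passed the test. The log2 fold change by edgeR was 0.07 ± 0.06 for MS172 against DMSO (SE, 95% interval -0.05 to 0.20, adjusted p = 0.381), -0.05 ± 0.06 for PK9328 against DMSO (-0.18 to 0.07, adjusted p = 0.648) and 0.13 ± 0.06 for MS172 against PK9328 (0.00 to 0.25, adjusted p = 0.0957).

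MAP2K4-201 took 94.4 to 99.4% of the reads of the gene. MAP2K4-202 holds an added exon 2 of 33 bases (chr17:12032266-12032298), shown in capitals between the last 20 bases of exon 1 and the first 20 of the next shared exon.
MAP2K4-202: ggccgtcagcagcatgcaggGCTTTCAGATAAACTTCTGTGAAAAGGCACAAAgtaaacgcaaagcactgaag
MAP2K4-201: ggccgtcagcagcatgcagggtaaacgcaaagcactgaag
Reads were assigned to the form with this exon in 3 libraries only, with 22.9 in MS172 replicate 2, 30.8 in MS172 replicate 3 and 15.9 in PK9328 replicate 3. It was listed at 0 in all 3 DMSO libraries. Among the 10 coding neighbours of MAP2K4, DNAH9, SHISA6, PIRT and TMEM238L, all on 1 side, were without reads, and ZNF18 at 4.47 TPM lay between them and MAP2K4. ZNF18 fell with MS172 against DMSO (log2 fold change -0.63, adjusted p = 4.5e-05 by edgeR).

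BRAF (chr7:140719327-140924928, minus strand) stood at 37.6, 43.0 and 41.2 CPM in the DMSO libraries, at 38.6, 37.2 and 42.1 with MS172 and at 43.6, 44.8 and 38.5 with PK9328. All 3 groups overlapped. The mean was 40.6 ± 2.7 CPM (SD, n = 3) with DMSO, 39.3 ± 2.5 with MS172 and 42.3 ± 3.4 with PK9328. None of the comparisons passed the test. The log2 fold change by edgeR was -0.05 ± 0.06 for MS172 against DMSO (SE, 95% interval -0.18 to 0.08, adjusted p = 0.604), 0.06 ± 0.06 for PK9328 against DMSO (-0.07 to 0.19, adjusted p = 0.598) and -0.11 ± 0.06 for MS172 against PK9328 (-0.23 to 0.02, adjusted p = 0.173). Without PK9328 replicate 3 the last of these was called, at -0.168 (edgeR adjusted p = 0.032).

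The tables hold 5 of the 21 BRAF transcripts in GENCODE 29. BRAF-204 took 68.8 to 76.5% of the reads and BRAF-201 20.3 to 26.6%. They are shown where BRAF-201 carries an added exon 10 of 120 bases (chr7:140785689-140785808), in capitals, between 20 bases of the exons on each side.
BRAF-201: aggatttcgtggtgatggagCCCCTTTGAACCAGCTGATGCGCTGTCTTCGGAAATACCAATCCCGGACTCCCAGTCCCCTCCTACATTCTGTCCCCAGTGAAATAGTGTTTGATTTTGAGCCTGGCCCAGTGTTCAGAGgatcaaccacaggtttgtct
BRAF-204: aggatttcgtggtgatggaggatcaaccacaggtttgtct
BRAF-201 had 226.0, 292.4 and 235.6 reads with DMSO, 237.0, 170.2 and 228.8 with MS172 and 247.8, 348.1 and 271.4 with PK9328. Every PK9328 library was above every MS172 library, and the DMSO libraries overlapped both groups. The compounds also did not overlap in BRAF-201 TPM, at 5.05 to 6.69 with PK9328 and 3.61 to 4.70 with MS172. As a share of BRAF reads they did overlap, at 20.8, 26.6 and 26.3% with PK9328 and 25.0, 20.3 and 22.7% with MS172. The BRAF transcripts also differ in length, at 2480 and 8294 bases, so the split does not measure the exon alone. Reads were assigned to annotated transcripts, and a small deletion inside an exon was not examined.

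Between genes, only levels per length can be set side by side. In the DMSO libraries SMAD4 was the highest of the 7 at 18.2 ± 1.2 TPM (SD, n = 3), followed by BRAF at 10.7 ± 1.0, MAP2K4 at 9.78 ± 0.83 and TGFBR2 at 0.0622 ± 0.021. BRAF (9.76 to 11.8 TPM) and MAP2K4 (8.92 to 10.6 TPM) overlapped in range, and the other neighbours in this order did not. The order of the genes depends on how reads were split between transcripts, which was not tested. In the DMSO libraries the full-length SMAD4-201 held 5.28 to 6.70 TPM and the shorter decay target SMAD4-217 held 4.35 to 6.33. MAP2K4-201 held 8.16 to 9.90 TPM, BRAF-204 4.13 to 4.91 and BRAF-201 4.69 to 5.67. With MS172, SMAD4 at 12.9 ± 2.4 TPM met the range of BRAF at 9.48 ± 0.76, and MAP2K4 stood at 8.84 ± 0.22. With PK9328 SMAD4 was at 26.1 ± 3.2 TPM, BRAF at 12.0 ± 1.2 and MAP2K4 at 9.44 ± 0.60.

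Of 18 genes of the CDK4 and RB axis that act with CDKN2A and CDKN2B, 16 stood at 1 TPM or more, and CCNE2 at 0.789 and CCND2 at 0.118 TPM were lower. All 18 were tested, and 6 rose and 3 fell with MS172 against DMSO, where 17.9% of all genes rose and 17.2% fell, with a median log2 fold change of 0.11 against -0.019 over all genes tested. CDKN1A, the p53-induced inhibitor of cyclin-dependent kinases, rose by 0.47 ± 0.08 (SE) and E2F3 by 0.26 ± 0.05, while the E2F2 log2 fold change was -0.63 ± 0.11 (edgeR adjusted p = 6.84e-05, 0.000418 and 5.55e-05). With PK9328, 2 rose and 1 fell, where 7.98% and 7.48% of all genes did, with a median of -0.04 against 0.002 over all genes. CDKN1A rose by 0.68 ± 0.08 and CDKN1B by 0.20 ± 0.04, and cyclin D1 (CCND1) changed by -0.38 ± 0.04 (edgeR adjusted p = 5.46e-07, 0.000446 and 5.94e-09). Between the compounds 7 were higher and 5 lower with MS172, where 47.7% of all genes differed.

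Around MTAP, all 16 genes of methionine salvage, polyamine synthesis and the PRMT5 complex were tested, and 4 rose and 5 fell with MS172 against DMSO (median log2 fold change -0.04), where 35.1% of all genes changed. Spermine synthase (SMS) and spermidine synthase (SRM), which release the substrate of MTAP, rose by 0.29 ± 0.04 and 0.27 ± 0.04 (SE). MAT2A, which makes S-adenosylmethionine, changed by -0.30 ± 0.04 and RIOK1, a partner of PRMT5, by -0.33 ± 0.05 (edgeR adjusted p = 2.4e-07 to 1.2e-05 over the 4). With PK9328 1 rose and 3 fell (median -0.03), where 15.5% of all genes changed: SAT1, which acetylates polyamines, rose by 0.56 ± 0.05, and SRM, AMD1 and MAT2A changed by -0.23 ± 0.04, -0.17 ± 0.04 and -0.15 ± 0.04 (edgeR adjusted p = 2.76e-09 to 0.0177). SRM thus rose with MS172 and fell with PK9328, and the difference between the compounds was 0.50 ± 0.04 (edgeR adjusted p = 8.58e-12).

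Of 26 genes of the TGF-beta and SMAD pathway, all were tested, 4 rose and 7 fell with MS172 against DMSO (median log2 fold change -0.07), and 2 rose and 5 fell with PK9328 (median -0.02). Over all genes tested 35.1% changed with MS172 and 15.5% with PK9328. SKI, a repressor of SMAD complexes, rose with MS172 by 0.41 ± 0.04 (SE) and changed by -0.26 ± 0.05 with PK9328. TGIF1, a corepressor, rose with both, by 0.31 ± 0.05 and 0.37 ± 0.04. The receptor-regulated SMAD5 and SMAD3 changed by -0.25 ± 0.05 and -0.19 ± 0.05 with MS172, and the ligand TGFB1 by -0.25 ± 0.05 with PK9328 (edgeR adjusted p = 2.93e-08 to 0.0021 for the genes named). The partner receptor TGFBR1 rose with MS172 by 0.27 ± 0.10 (edgeR adjusted p = 0.0372), did not pass with PK9328 (-0.27 ± 0.10, adjusted p = 0.0763 by edgeR), and was higher with MS172 than with PK9328 by 0.54 ± 0.10 (edgeR adjusted p = 6.91e-05).

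Of 17 genes known as TGF-beta and SMAD targets, 15 were tested, and 5 rose and 5 fell with MS172 against DMSO (median log2 fold change 0.04), beside 17.9% and 17.2% of all genes. The inhibitors of differentiation ID3 and ID1, which are best known as BMP targets, changed by -0.96 ± 0.04 (SE) and -0.92 ± 0.04, and LTBP2 by -0.65 ± 0.06 (edgeR adjusted p = 1.61e-18, 8.67e-18 and 7.61e-10). With PK9328 3 rose and 3 fell (median -0.03), beside 7.98% and 7.48% of all genes, with ID1 at -0.24 ± 0.04 and JUNB at 0.16 ± 0.04 (edgeR adjusted p = 4.62e-05 and 0.0128). The compounds differed for ID3 by -0.89 ± 0.04 (MS172 minus PK9328, edgeR adjusted p = 6.67e-18). The list holds both rising and falling genes, and SMAD4 itself did not pass between MS172 and DMSO.

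Of 21 genes of the JNK and p38 pathway of MAP2K4, 20 were tested and DUSP10 was listed at 0. With MS172 6 rose and 2 fell (median log2 fold change 0.01), where 35.1% of all genes changed. JUN rose by 0.39 ± 0.04 (SE), MAP2K3, the p38 kinase kinase, by 0.40 ± 0.04 and MAP3K11, which acts above MAP2K4, by 0.27 ± 0.04 (edgeR adjusted p = 1.31e-09, 4.12e-09 and 5.2e-06). With PK9328 5 rose and 1 fell (median 0.06), where 15.5% of all genes changed. The phosphatases DUSP1 and DUSP16 rose by 0.33 ± 0.07 and 0.21 ± 0.05, and MAP2K3 changed by -0.22 ± 0.04 (edgeR adjusted p = 0.00226, 0.00539 and 0.000399).

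All 18 genes of the RAS, RAF and ERK pathway were tested. With MS172 8 rose and 1 fell, beside 17.9% and 17.2% of all genes tested, and the median log2 fold change was 0.07. The ERK inhibitor SPRED2 rose by 0.35 ± 0.04 (SE), MAP2K2 (MEK2), the direct target of BRAF, by 0.27 ± 0.04 and MAPK3 (ERK1) by 0.21 ± 0.04 (edgeR adjusted p = 2.92e-07, 1.33e-06 and 0.0005). With PK9328 only SHOC2 rose, by 0.28 ± 0.06, and only YWHAB fell, at -0.12 ± 0.04 (edgeR adjusted p = 0.000717 and 0.0209).

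Of 16 genes known as ERK outputs, all were tested, 5 rose and 4 fell with MS172 (median log2 fold change -0.02), and 4 rose and 4 fell with PK9328 (median 0.00), where 35.1% and 15.5% of all genes changed. FOSL1 rose with MS172 by 0.64 ± 0.04 (SE) and ETV4 by 0.38 ± 0.04, while EGR1 changed by -0.25 ± 0.04 (edgeR adjusted p = 2.59e-13, 4.81e-09 and 2.23e-06). EGR1 rose with PK9328 by 0.20 ± 0.04 (edgeR adjusted p = 0.000226), and the difference between the compounds was -0.45 ± 0.04 (MS172 minus PK9328, edgeR adjusted p = 1.71e-11).

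Of 25 other genes mutated in pancreatic cancer, 22 were tested, and ARID1B, KDM6A and RNF43 were listed at 0 in all 9 libraries, with the same limit. With MS172 4 rose and 7 fell (median log2 fold change -0.09, with 35.1% of all genes changed), among them the chromatin remodeller ARID1A at -0.53 ± 0.09 (SE), the DNA repair gene PALB2 at -0.34 ± 0.08 and the splicing regulator RBM10 at -0.18 ± 0.04, while GNAS rose by 0.16 ± 0.04 (edgeR adjusted p = 5.93e-05 to 0.00116). With PK9328 none rose and 2 fell, where 15.5% of all genes changed, the remodeller SMARCA4 at -0.23 ± 0.04 and GNAS at -0.12 ± 0.04 (edgeR adjusted p = 5.54e-05 and 0.0272).

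Across the 9 libraries, log2 CPM of SMAD4 was close to that of PPAT (Pearson r = 0.965) in a search of 11330 coding genes with a mean of at least 1 CPM. MAP2K4 was most like HACD2 (0.953) and TMEM245 (0.927), and BRAF most like RAB3GAP2 (0.950) and MARCH5 (0.938). Among the members, SMAD4 and BRAF had r = 0.708, SMAD4 and MAP2K4 0.017, and MAP2K4 and BRAF -0.020. These values describe 9 libraries that share their 3 groups and their fragment lengths.

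Around SMAD4, MEX3C rose with PK9328 against DMSO (log2 fold change 0.22, adjusted p = 4.6e-05 by edgeR), and ELAC1 and MBD2 fell with MS172 (-0.28 and -0.53, adjusted p = 0.0421 and 0.00278 by edgeR). Of its 6 tested neighbours, 5 were lower with MS172 than with PK9328, as was SMAD4, where 24.4% of all genes tested were lower. These 5 include the readthrough gene AC091551.1, which overlaps ELAC1 and SMAD4 and had 72.3 reads in all libraries together. A shared cause was not tested. Around BRAF, NDUFB2 and ADCK2 rose with MS172 against DMSO by 0.14 and 0.13, and TMEM178B changed by -0.40 (edgeR adjusted p = 0.0115, 0.0182 and 0.00816), while none of the 7 tested passed with PK9328. Around TGFBR2, AZI2 changed by -0.22 with MS172 and 0.28 with PK9328 (edgeR adjusted p = 0.0375 and 0.0155).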

How the data were processed

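Poly(A) RNA libraries of 9 samples were analysed. The authors deposited estimated counts and TPM per transcript for each library, per the file headers. Reads refer to hg38 and were inspected with FastQC 0.11.8, per the submitters' processing notes. The quantification program is not given in the sources used here. Transcript identifiers, without version, were looked up in GENCODE 29 (193348 of 197653), and unmatched rows held 0.356 to 0.382% of reads. Estimated counts were summed per gene and rounded. All 9 libraries were fitted together with edgeR 4.0.16 (TMM, filterByExpr, robust quasi-likelihood) in R 4.3.3. P-values were adjusted by Benjamini-Hochberg over 13914 genes, with a threshold of 0.05, checked on simulated data. Fragment length was taken as length minus effective length of transcripts over 3000 bases. Replicate libraries differed by more than sampling noise. Named genes are the 7 members, the 5 nearest coding genes on each side, up to 4 genes of smallest p per list and the 2 most correlated genes. Some genes that these rules name are not reported here. The members and lists were chosen with earlier results of these data known. DESeq2 1.42.0, limma-voom (limma 3.58.1) and other settings were tried as alternatives.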

Additional observations from a re-analysis of the deposited data

How the results depend on the processing

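The direction of BRAF in all 3 comparisons was the same under every alternative run. The 0 counts of CDKN2A, CDKN2B and MTAP could not change, because every run starts from the same deposited quantification. These runs therefore do not test the 0 counts. No pairing by replicate number was seen, since deviations of same-numbered libraries had correlations of -0.057 to 0.017. These values do not show whether same-numbered libraries shared a culture or a batch. With the replicate number as a block, the pairing left 4597, 1884 and 6405 genes called for MS172 against DMSO, PK9328 against DMSO and MS172 against PK9328, in place of 4884, 2151 and 6641, and SMAD4 kept its calls, with a log2 fold change of 0.153 for PK9328 against DMSO and -0.146 for MS172 against PK9328.

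For PK9328 against DMSO, the members called went from 1 to 0 with DESeq2 size factors in edgeR (SMAD4 at 0.147), DESeq2 (0.148), limma-voom (0.152), a fit of only the libraries compared (0.152) and fragment length as a covariate (0.207). Over single libraries left out, 0 to 1 members were called and SMAD4 ranged from 0.104 to 0.215. For MS172 against PK9328, the count went to 0 with DESeq2 (SMAD4 at -0.133) and with the covariate (-0.207). Over single libraries left out it was 0 to 2, SMAD4 ranged from -0.180 to -0.102 and BRAF from -0.168 to -0.064. SMAD4 in MS172 against DMSO, at 0.00, changed sign to -0.001 with a filter of 1 CPM in 3 libraries and to -0.336 with length-scaled counts, and ranged from -0.031 to 0.066 over single libraries left out. MAP2K4 in PK9328 against DMSO changed sign to 0.005 with the covariate. Genes called for PK9328 against DMSO were 1080 with length-scaled counts and 178 with the covariate, and 1384 to 2215 over single libraries left out, with 1384 without DMSO replicate 1 and 1400 without PK9328 replicate 2. Genes called for MS172 against PK9328 were 2480 with the covariate. Fragment length and the PK9328 group largely coincide, and the cause of the other changes was not tested. Depth limits TGFBR2, with 2 to 8 reads per library.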
